A study of Homo sapiens with 6 samples.

Results

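PLAUR, the urokinase receptor, and 8 further genes of the plasminogen activator system were examined in cultured human podocytes. The members were chosen by name from the rows of the authors' comparison table, and all 9 were found among its 20745 genes. The names were put together with the authors' comparison of levamisole with vehicle in view, and the values of that comparison are neither used nor printed here. The cells were AB 8/13, a single conditionally immortalized human podocyte line (cihPod) that divides at a permissive temperature and was differentiated for 7 to 10 days at a restrictive one. There were 3 vehicle cultures and 3 cultures given 1 µM levamisole, a drug against parasitic worms that also acts on the immune system, for 24 h. By the treatment protocol in the labels neither group had serum during those 24 h, but the study's methods name complete medium for vehicle. The CEL-seq method, in an adapted form, was used for the libraries, and it reads transcripts mostly near their 3′ end. The table analysed here gives 1 level per gene, the base mean, which is the authors' mean of normalized counts over the libraries of their fit. Levels of the members in treated and in vehicle cultures were therefore not compared, no level carries a replicate error, and the depth of each library is unknown.

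In the plasminogen activator system, the serine proteases urokinase (PLAU) and tissue-type activator (PLAT) convert plasminogen to plasmin, a protease that cleaves fibrin and matrix proteins. PLAUR holds urokinase at the cell surface, serpins inhibit the activators, and low-density lipoprotein receptor family members take up the inhibited complexes. In podocytes the receptor is known for its link to the vitronectin-binding αvβ3 integrin, and its soluble form has been discussed as a circulating factor in focal segmental glomerulosclerosis.

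The labelled cell type was checked against 11 podocyte markers, of which 9 had a value and 8 had a base mean of at least 5. The highest were ACTN4 (base mean 14320), CD2AP (929) and MME (116), whereas PTPRO (0.333) was under 5. The other 5 over that minimum were SYNPO (22.8), NES (18.1), PODXL (15.3), TCF21 (7.20) and WT1 (6.21). The median of the 9 podocyte markers was 18.1, below the median of 21.8 over all genes of the table. The slit diaphragm gene NPHS1 and the transcription factor LMX1B were looked up by name and had no value in the table. Of 20 markers of other kidney and blood cells, 12 had a value. Only DCN, a fibroblast proteoglycan, was over 5. Its base mean of 36.9 was higher than those of SYNPO, NES, PODXL, TCF21 and WT1. The other 11 (PDGFRB, VWF, CDH5, TEK, PTPRC, CD68, CD14, SLC34A1, SLC5A2, CUBN and SLC12A3) lay between 0.306 and 4.14. For CD68 (1.06), another annotated gene covers 82.6% of the last 500 exonic bases on the same strand. How reads were divided between CD68 and that gene was not tested, so its low value is uncertain.

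All 9 members had a base mean of at least 5, as did 64.3% of the genes in the table. Of the 9 members, 8 lay above the median base mean of the table. Ranked among all genes, 5 members were in the highest 10% and 6 in the highest 20%. Their base means summed to 17439, which is 0.275% of the total of the table. ANXA2 alone made up 73.3% of that sum. From SERPINB2 at 12.5 to ANXA2 at 12776, the base means spanned a 1019-fold range.

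**Figure D1:**
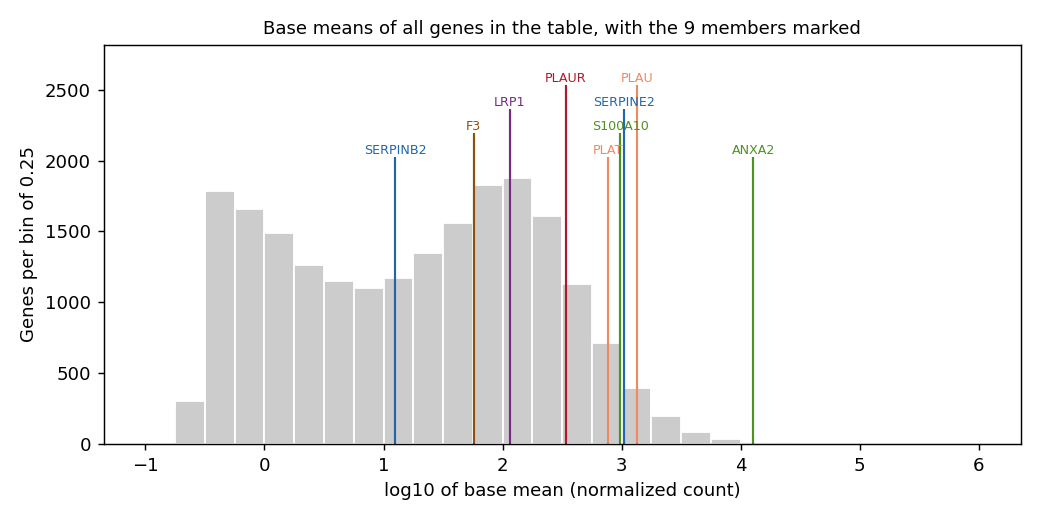
Number of genes (vertical axis) per bin of 0.25 in the log10 of the base mean (horizontal axis) for all 20745 genes, with a vertical line at each member's base mean, coloured by role; the heights of the lines only separate the names. PLAT, S100A10, SERPINE2 and PLAU sit close together in the upper tail, ANXA2 lies farther to the right in that tail, and SERPINB2 is left of the second peak.

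Counts of a 3′ method depend little on transcript length. Levels of different genes were nonetheless compared per kilobase of transcript, and the base mean is given beside it. Dividing such counts by length lowers genes with long transcripts against those with short ones. Differences between genes seen only per kilobase can therefore reflect length alone. The order per kilobase was ANXA2, S100A10, PLAU, SERPINE2, PLAT, PLAUR, F3, LRP1 and SERPINB2. Without length scaling, PLAU and SERPINE2 stood above S100A10, LRP1 stood above F3, and the other 4 members kept their places. Whether neighbours in this order differ beyond the spread between cultures could not be tested.

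**Figure D2:**
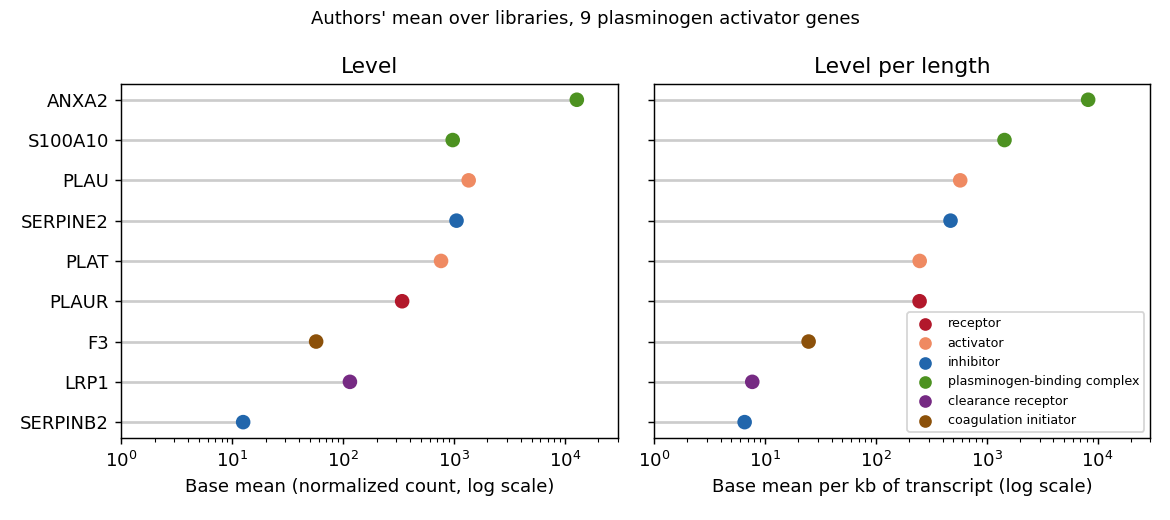
Base mean in normalized counts (left) and base mean per kilobase of transcript (right), both on log scales, for the 9 members, coloured by role; each point is the authors' mean over libraries, without an error. ANXA2 is highest on both scales and SERPINB2 lowest, while LRP1 and F3 exchange places.

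PLAUR (ENSG00000011422) is the receptor of the system, a glycolipid-anchored surface protein. The gene occupies bases 43646095 to 43670547 of chromosome 19 (GRCh38, minus strand), and its reference transcript has 7 exons and 1368 bases. Its base mean was 340, which is above that of 88.3% of the genes in the table and puts it at place 2427. Per kilobase its level was 248. This was close to the level of PLAT (249 per kilobase), although on the base mean PLAT was 2.24 times as high as PLAUR. It was below that of its ligand PLAU (577 per kilobase).

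The promoters of PLAUR, ANXA2, F3 and SERPINB2 are shown because they carry the motifs described next, and because ANXA2 and SERPINB2 are the highest and the lowest of the members. Each is the run of 250 bases before the RefSeq transcription start, from 5′ to 3′ on the strand of the gene in GRCh38.p14. Capitals mark an AP-1 motif (TGACTCA, or TGAGTCA on the other strand) or a TATA motif (TATAAA on either strand).
PLAUR, chr19:43670170-43670419, minus strand: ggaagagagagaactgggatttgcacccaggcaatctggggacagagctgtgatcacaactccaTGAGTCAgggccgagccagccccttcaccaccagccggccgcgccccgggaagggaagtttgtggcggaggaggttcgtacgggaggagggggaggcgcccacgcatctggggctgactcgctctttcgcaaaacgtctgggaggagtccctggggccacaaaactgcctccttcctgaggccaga
ANXA2, chr15:60397987-60398236, minus strand: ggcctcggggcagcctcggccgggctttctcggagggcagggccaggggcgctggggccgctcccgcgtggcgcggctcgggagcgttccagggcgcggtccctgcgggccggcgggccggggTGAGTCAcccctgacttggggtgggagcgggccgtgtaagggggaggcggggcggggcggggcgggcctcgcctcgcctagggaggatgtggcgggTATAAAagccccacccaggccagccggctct
F3, chr1:94541760-94542009, minus strand: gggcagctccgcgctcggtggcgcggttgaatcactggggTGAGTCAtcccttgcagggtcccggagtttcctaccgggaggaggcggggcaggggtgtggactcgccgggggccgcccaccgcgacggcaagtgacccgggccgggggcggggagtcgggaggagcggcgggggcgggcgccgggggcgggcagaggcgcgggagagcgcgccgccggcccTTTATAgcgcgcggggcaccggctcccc
SERPINB2, chr18:63887455-63887704, plus strand: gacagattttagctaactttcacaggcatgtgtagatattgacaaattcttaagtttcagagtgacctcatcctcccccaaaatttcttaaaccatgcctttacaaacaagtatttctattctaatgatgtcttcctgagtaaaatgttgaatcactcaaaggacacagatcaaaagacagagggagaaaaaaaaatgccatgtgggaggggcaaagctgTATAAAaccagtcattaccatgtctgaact

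AP-1, the dimer of FOS and JUN proteins, is known to bind the first of these motifs. It was present in the windows of 3 of the 8 members that have one (PLAUR, ANXA2 and F3), against 5.19% of the 27305 genes with such a window. Where a gene has several windows, as SERPINE2 and PLAU do, a match in any of them was counted, and these shares are per gene. Counted per window, 4.20% of the 35116 windows hold it. It begins 186 bases before the start of PLAUR, 127 before that of ANXA2 and 210 before that of F3. The TATA motif was in the windows of ANXA2, F3 and SERPINB2, beginning 28 to 31 bases before the start, against 13.0% of all genes. In F3 the match is on the opposite strand. The GC box (GGGCGG on either strand) was in the windows of 6 of the 8 members, against 46.2% of all genes. The motif CCAAT, also on either strand, was in those of 2 (SERPINE2 and PLAU), against 37.0%. A match is a description of the sequence, and no binding was measured.

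ANXA2 and F3 had the same GC content in this window, 78.0%, above that of 94.3% of all windows. Their levels were 8221 and 24.8 per kilobase, with base means of 12776 and 57.0. A relation of GC content to level was not tested. SERPINB2 had the lowest GC content of the members (37.2%, with 0 CG dinucleotides), and PLAUR had 63.2% with 13 CG dinucleotides.

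PLAU (ENSG00000122861), the urokinase gene, lies on chromosome 10 from 73909177 to 73917496 and had a base mean of 1353, at place 516 of the table. PLAT (ENSG00000104368, chromosome 8, 42174718 to 42207709), which encodes the activator best known from fibrinolysis in blood vessels, had a base mean of 763. Both activators were thus in the highest 10% of the table. The level of PLAU was 2.32 times that of PLAT per kilobase and 1.77 times on the base mean. Relative to its receptor PLAUR, PLAU was 2.32 times as high per kilobase and 3.98 times as high on the base mean. With the union of all exons as length, PLAU was 4.67 times as high as PLAT and 6.02 times as high as PLAUR.

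The inhibitors among the members lay far apart. SERPINE2 (ENSG00000135919, chromosome 2, 223975045 to 224039318) encodes protease nexin-1, an inhibitor of thrombin and of both activators, and had a base mean of 1051 and a level of 472 per kilobase. SERPINB2 (ENSG00000197632, chromosome 18, 63871692 to 63903888) encodes plasminogen activator inhibitor 2, a largely intracellular serpin. Its base mean was 12.5, its level 6.58 per kilobase and its place 11546 of 20745. SERPINE2 was thus 71.8 times as high as SERPINB2 per kilobase, 83.9 times on the base mean and 25.7 times with the union of exons. Of the other listed inhibitors, SERPINF2, the plasmin inhibitor, had a base mean of 15.3 and SERPINI1, neuroserpin, one of 8.38. SERPINA5, A2M and CPB2 had no value in the table.

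ANXA2 and S100A10 encode the 2 kinds of subunit of the annexin A2 heterotetramer, a surface complex that binds plasminogen and PLAT. ANXA2 (ENSG00000182718, chromosome 15, 60347134 to 60402883) had a base mean of 12776, at place 39 of the table. S100A10 (ENSG00000197747, chromosome 1, 151982915 to 151993859) had one of 971, at place 788. The level of ANXA2 was 5.68 times that of S100A10 per kilobase of 1 transcript and 13.2 times on the base mean. Scaled by the union of all exons, which is 11574 bases for ANXA2 and 1012 for S100A10, the ratio was 1.15. The ratio of this pair therefore depended on the length chosen. Of 2 further plasminogen receptors, ENO1, a glycolytic enzyme also found at the cell surface, had a level of 2392 per kilobase (base mean 4260), and PLGRKT one of 357 per kilobase (base mean 350). Plasminogen itself (PLG), which is made mainly by the liver, had no value in the table.

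LRP1 (ENSG00000123384, chromosome 12, 57128483 to 57213361) is a large endocytic receptor that clears activator and inhibitor complexes. Its base mean of 115 was above that of 73.1% of all genes and of 32.5% of those at or over 50, and with 89 exons and 14923 bases in its reference transcript its level per kilobase was 7.70. The other listed genes of this role were higher per kilobase, but on the base mean MRC2 was below LRP1. LRPAP1, a chaperone of these receptors, had a base mean of 523, VLDLR one of 326 and MRC2 one of 97.8, which is 50.04, 35.4 and 17.1 per kilobase. On the base mean LRPAP1 was 1.54 times as high as PLAUR, whereas per kilobase it was below PLAUR. LRP2 had no value in the table.

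Among the listed partners of PLAUR, the integrin chains ITGA3 (base mean 2506), ITGB1 (680) and ITGAV (627) were in the highest 10% of the table. The β3 chain ITGB3 was lower, with a base mean of 63.8. PLAUR was 5.33 times as high as ITGB3 on the base mean, 8.16 times with the union of exons and 23.1 times per kilobase of 1 transcript. The matrix protein gene VTN was under 5. On the same strand, another annotated gene covers 65.8% of the last 500 exonic bases of VTN. How reads were divided between VTN and that gene was not tested.

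F3 (ENSG00000117525, chromosome 1, 94529173 to 94541759) encodes tissue factor, the cell-surface receptor that starts coagulation with factor VII. Its base mean was 57.0 and its level 24.8 per kilobase, and PLAUR was 10.0 times as high per kilobase. That ratio was 5.96 on the base mean and 3.86 with the union of exons. TFPI2 (base mean 299) and TFPI (129), listed as coagulation inhibitors, had levels of 135 and 33.5 per kilobase. PROCR, the protein C receptor, had a base mean of 98.9 and THBD, thrombomodulin, one of 17.9. The protease-activated receptors F2RL1 and F2R had base means of 282 and 138. F7 was under 5, and F2 and F10 had no value in the table.

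Of the 26 other genes listed for the system and its coagulation neighbours, 19 had a value and 17 had a base mean of at least 5. Their median base mean was 138, and 5 of them were in the highest 10% of the table. The values cover ligand, receptor, inhibitors and surface complex, whereas 7 genes, among them the circulating proteins PLG, A2M, F2 and F10, had no value in the table.

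**Figure D3:**
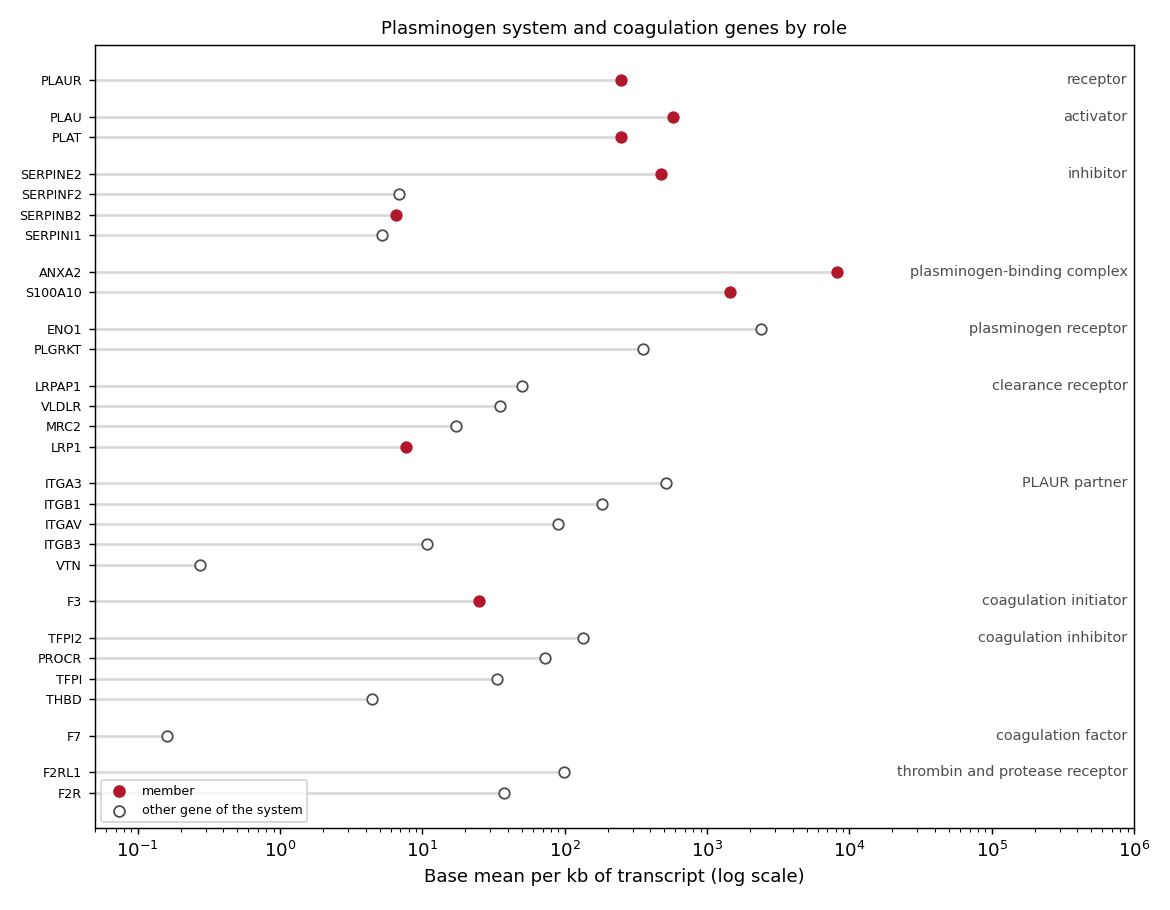
Base mean per kilobase of transcript (horizontal, log scale) for the 9 members (filled) and the 19 other listed genes with a value (open), grouped by role; each point is the authors' mean over libraries, without an error. ANXA2 and ENO1 are the highest, and the clearance receptors and ITGB3 lie below PLAUR on this scale, though LRPAP1 is above it on the base mean.

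The ends of the member transcripts were checked, since 3′ reads fall there. For 0 of the 9 members did another annotated gene cover any of the last 500 exonic bases on the same strand. Elsewhere in the genome, 8 of the 9 ends had no match of 60 bases or more at 95% identity. The exception was ANXA2, with 1 match of 88 bases at 95.5% identity on chromosome 9 (33625273 to 33625360), at the processed pseudogene ANXA2P2. ANXA2P2 had a base mean of 27.4, small beside that of ANXA2, and how reads were divided between them was not tested.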

How the data were processed

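RNA from 3 vehicle and 3 levamisole cultures was sequenced by an adapted CEL-seq protocol. Per the labels and methods, reads were trimmed with Trim Galore 0.4.5, mapped to GRCh38 with STAR 2.7.5a, counted with HTSeq 0.11.0 and compared with DESeq2 1.22.0 by the authors. The deposited base mean is a signal: the authors' mean of counts divided by size factors over the libraries of their fit. Whether that fit held only the 6 libraries is not stated. The table's other columns are the authors' comparison (log2 fold change with standard error, test statistic, raw and adjusted p-values) and were not used. The planned test of levamisole against vehicle needs values per culture and was not made.

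Places, percentiles and levels per kilobase were computed with Python 3.11.15, NumPy 2.4.6 and pandas 2.3.3, after tests on simulated data, and figures drawn with matplotlib 3.10.9. Lengths are those of the canonical transcript in GENCODE 44 on GRCh38, to which 20599 of 20745 identifiers matched. Gene positions are the bounds of the whole gene there, over all its annotated transcripts. The promoter windows of PLAUR, ANXA2 and SERPINB2 therefore lie inside the printed bounds of their genes. This annotation is later than the authors'. Transcript ends were searched in the genome with BLAST+ 2.17.0. Promoter windows come from RefSeq (GRCh38.p14), equalled the genome sequence, and matched 8 of the 9 members. Members and lists were chosen with earlier results of these data known. The genes named are all members, the listed genes of the system and podocyte markers, and the other markers with a value. Of the system genes, those with a base mean of at least 5 have it printed. Some listed genes are not reported here and were left out of every count of the lists.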

Additional observations from a re-analysis of the deposited data

How the results depend on the processing

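The order of the members kept 9 of 9 places with the union of exons as length and 4 of 9 without length scaling, but each ratio given between 2 genes moved by over 1.5 times between the scalings. The members' share of the total of base means went from 0.275% to 0.421% when the 22 mitochondrial genes, which took 34.8% of the total, were left out. The count of 9 markers at a base mean of at least 5 became 3 at a minimum of 50 and 21 with no minimum. The counts of members and of other genes of the system stayed within 1.5 times at minimums of 10, 50 and none. Ranked only among genes at or over 5, the percentile of F3 went from 62.0 to 40.9 and that of SERPINB2 from 44.3 to 13.4. Among those at or over 50, F3 was at 4.78 and LRP1 went from 73.1 to 32.5, because low genes leave the ranking. No paired analysis was possible because 1 mean per gene was analysed and no value per culture. Tests on counts (edgeR, DESeq2), another normalization, no filter on low counts and leaving out a culture could not be run either, and the precision of each level is unknown.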
